A study of Mus musculus with 6 samples.

Results

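Fibronectin and the matricellular proteins are secreted proteins that connect cells to the extracellular matrix around them. Messenger RNA of 10 such genes was followed here, namely Fn1, Thbs1, Thbs2, Tnc, Postn, Sparc, Smoc1, Smoc2, Cthrc1 and Tgfbi. They were taken by gene name from a table of 78409 genes, in which each name occurred once. The cells were nephrogenic stroma, the connective tissue cells of the nephron-forming outer zone of the fetal kidney, from wild-type CD1 mice at embryonic day 18. They were sorted for the surface receptor PDGFRa after enzymatic release from pooled kidneys and grown for 18 h in medium with serum. All stood on glass coated with the silicone PDMS. For the low adhesion group the coating had been soaked in 500 ng/mL bovine fibronectin, for the high adhesion group in 50000 ng/mL. Each of 3 litters gave 1 low and 1 high adhesion library, so that n = 3 per group, and a litter is a pool of kidneys and not 1 animal. The bovine fibronectin was supplied as protein, whereas the measurements below are of the cells' own RNA.

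Fibronectin forms fibrils that cells assemble through integrin receptors, which bind an Arg-Gly-Asp sequence in the protein and link it to the actin cytoskeleton. Matricellular proteins are deposited in the matrix but serve less as scaffold than as modulators of adhesion, of growth factor activity and of collagen assembly. Many of them are abundant in embryonic connective tissue and in wounds and scarce in resting adult tissue. Thrombospondins 1 and 2 (Thbs1, Thbs2) bind the receptors CD36 and CD47, and thrombospondin 1 can release active TGF-beta from its latent form. Tenascin C (Tnc) can weaken the adhesion of cells to fibronectin. Periostin (Postn) and TGF-beta-induced protein (Tgfbi) are fasciclin-domain relatives that bind integrins and collagen. SPARC (Sparc) and its relatives SMOC1 and SMOC2 bind calcium, SPARC also binding collagen. CTHRC1 is a secreted glycoprotein with a short collagen repeat.

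Of the 10 genes, 9 had enough counts for the test across all genes, and Smoc1 did not. Cthrc1, Smoc2 and Postn were lower at high adhesion, and no member passed the test in the other direction. Cthrc1 fell by a factor of 2.03, Smoc2 by 1.68 and Postn by 1.15. Fn1, the fibronectin gene, was not called. For comparison, 9.55% of 14834 tested genes were called in either direction and 4.83% as lower. A call here is a p-value adjusted over all genes by the Benjamini-Hochberg method (BH) of under 0.05, from the quasi-likelihood fit of edgeR that pairs the libraries by litter. Leaving the litter term out, 0.243% were called, and DESeq2 called 3.48%. The median log2 fold change of the 9 members was -0.08 and their median absolute change 0.13. Over all tested genes these medians were -0.0012 and 0.10. The values rest on relative abundance in bulk samples, in which fewer cells of a type and less RNA per cell cannot be told apart.

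Reference promoters were at hand for Thbs2, Tnc, Postn, Sparc and Tgfbi, and those of 3 genes are shown because they cover a gene that fell and passed (Postn), its closest relative among the members (Tgfbi) and the gene whose 3 high adhesion libraries all lay above the low ones (Tnc). The sequences are RefSeq's of mouse build GRCm38.p6 and not of the CD1 strain. Each runs from 250 bases before to 50 bases after an annotated transcription start, 5′ to 3′ on the gene's strand, and capitals mark the short SMAD motif CAGAC or its reverse complement GTCTG. Postn has 2 annotated starts, on the plus strand at chr3:54359017-54359316 and chr3:54360857-54361156. The Tgfbi window is on the plus strand at chr13:56609336-56609635, and that of the second Tnc start on the minus strand at chr4:64046887-64047186.
Postn start 1: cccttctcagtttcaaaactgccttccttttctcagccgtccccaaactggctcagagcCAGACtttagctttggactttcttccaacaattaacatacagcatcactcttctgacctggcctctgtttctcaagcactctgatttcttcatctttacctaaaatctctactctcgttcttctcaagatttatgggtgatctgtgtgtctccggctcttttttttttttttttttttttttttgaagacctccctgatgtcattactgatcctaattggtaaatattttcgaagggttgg
Postn start 2: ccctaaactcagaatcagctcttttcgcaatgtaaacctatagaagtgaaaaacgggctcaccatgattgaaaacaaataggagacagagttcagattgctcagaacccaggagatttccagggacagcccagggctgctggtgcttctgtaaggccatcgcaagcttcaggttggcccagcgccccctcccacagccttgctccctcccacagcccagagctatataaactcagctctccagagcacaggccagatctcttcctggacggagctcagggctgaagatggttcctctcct
Tgfbi: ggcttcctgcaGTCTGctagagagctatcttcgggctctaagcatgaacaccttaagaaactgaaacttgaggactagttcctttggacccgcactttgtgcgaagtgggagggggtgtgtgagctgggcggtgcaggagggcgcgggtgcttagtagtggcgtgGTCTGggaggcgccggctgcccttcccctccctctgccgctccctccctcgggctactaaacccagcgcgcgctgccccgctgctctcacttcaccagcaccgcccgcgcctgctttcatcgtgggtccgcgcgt
Tnc start 2: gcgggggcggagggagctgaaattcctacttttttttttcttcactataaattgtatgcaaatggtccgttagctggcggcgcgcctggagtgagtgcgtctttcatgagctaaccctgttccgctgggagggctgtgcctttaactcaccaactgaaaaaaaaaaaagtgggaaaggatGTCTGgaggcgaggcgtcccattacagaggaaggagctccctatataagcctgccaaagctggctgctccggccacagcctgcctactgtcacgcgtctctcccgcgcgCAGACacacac

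Across the 7 windows of the 5 genes, both strands were searched for 4 motifs. The TEAD motif CATTCC, the AP-1 motif TGANTCA and the SRF-binding CArG box had no match in any of the 7. They occur in 14.7%, 7.81% and 1.63% of 32851 promoters of the same length. The SMAD motif, a short sequence that 49.6% of all promoters hold, matched in 6 of the 7, overlapping no other motif searched. The exception was the second Postn start. The 2 Tnc windows overlap and share 1 match, so the 7 windows are not independent. The first Postn start held 1 match, which begins 191 bases before the start. Tgfbi held 2, beginning 239 and 85 bases before it. These matches describe letters in a window and not binding.

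Cthrc1 (ENSMUSG00000054196, chromosome 15) is the collagen triple helix repeat gene. Its low adhesion libraries held 32.0, 38.6 and 33.0 CPM in litters 1, 2 and 3, where CPM are counts scaled to a common library total with TMM. The high adhesion libraries held 18.6, 18.4 and 14.0 CPM. The groups did not overlap, and every litter fell, to 0.582, 0.478 and 0.424 times its low adhesion value. Means were 34.5 ± 3.53 and 17.02 ± 2.63 CPM (mean ± SD, 3 libraries each), with a log2 fold change of -1.02 ± 0.08 (SE, standard error, 3 pairs; edgeR, BH-adjusted p = 3.69e-09). By p-value Cthrc1 ranked 13 among all tested genes. It rested on 189 to 507 counts per library, all whole numbers, and was called in each of 12 alternative settings, with log2 fold changes from -1.15 to -0.92. Of the tested genes 0.189% were called lower with at least a 2-fold change.

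Smoc2 (ENSMUSG00000023886, chromosome 17), which encodes a SPARC-related modular calcium-binding protein, held 175, 156 and 166 CPM at low adhesion. At high adhesion it held 123.4, 78.6 and 96.7 CPM. Each high adhesion library lay below all low ones, and the size of the fall differed between litters, with log2 ratios of -0.50, -0.99 and -0.78. Litter 1 was the highest and litter 2 the lowest on either substrate. The log2 fold change was -0.75 ± 0.08 (SE, 3 pairs; edgeR, BH-adjusted p = 0.000109). Without the replicate block, that is with litter left out of the model, Smoc2 was not called (adjusted p = 0.209). It was called in the other 11 alternatives. The adjusted p there ran from 0.000651 (edgeR, genes of at least 5 CPM) down to 5.23e-49 (edgeR with no filter on low counts), and DESeq2 gave 8.82e-06.

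Smoc1 (ENSMUSG00000021136, chromosome 12) was near the limit of detection. It had 7, 14 and 8 counts in the low adhesion libraries and 6, 2 and 5 in the high ones. A floor of 3 counts equals 0.222 to 0.238 CPM, and the high adhesion library of litter 2 was under it. The high adhesion libraries were all below the low ones, but 1 count separated the closest of them, and the floor covers counting error only. With no filter on low counts the log2 fold change was -1.11 ± 0.46 (SE, 3 pairs), which did not pass (BH-adjusted p in edgeR = 0.245). The ratio of Smoc1 to Smoc2 changed by -0.45 on the log2 scale on average, with 0.31, -1.74 and 0.07 in litters 1, 2 and 3. An exact sign-flip permutation test over litters gave p = 1 (two-sided), where 3 pairs cannot go below 0.25, and the direction reversed without litter 2 and with a pseudocount of 1 CPM. A difference between the SMOC genes in their response was not shown.

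**Figure D1:**
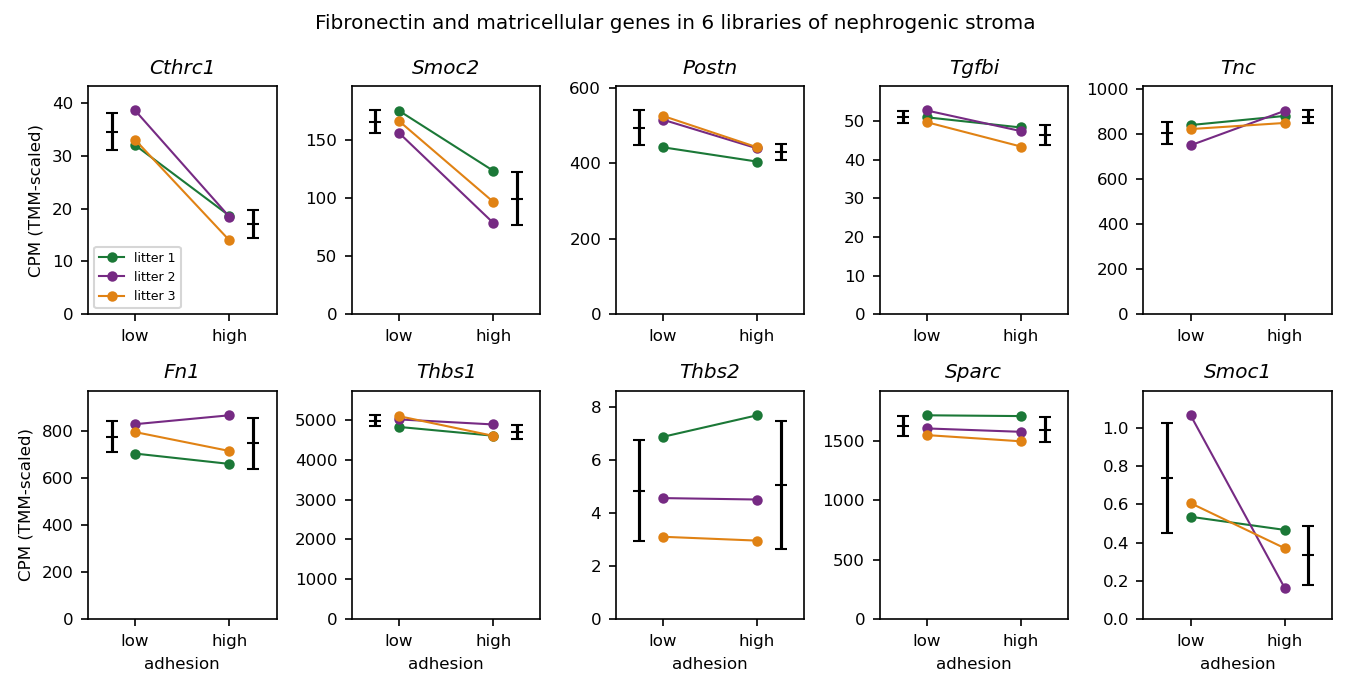
Level of each of the 10 genes (y axis, TMM-scaled CPM from 0) at low and high adhesion (x axis); lines join the libraries of 1 litter, and black bars give the group mean ± SD over 3 libraries. Cthrc1 and Smoc2 fell in each litter, Thbs2 kept its order of litters on both substrates, and Smoc1 stayed near or under 1 CPM.

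Postn (ENSMUSG00000027750, chromosome 3), the periostin gene, held 442, 516 and 526 CPM at low adhesion and 404, 439 and 442 CPM at high adhesion. The low library of litter 1 (442.38 CPM) and the high library of litter 3 (442.31 CPM) almost met, and in the CPM as deposited, 440.2 and 442.6, they overlapped. Within litters the fall was clearer, with log2 ratios of -0.13, -0.23 and -0.25. The fitted log2 fold change was -0.20 ± 0.04 (SE, 3 pairs; edgeR, BH-adjusted p = 0.000958). Postn lost its call when the replicate block was dropped (adjusted p = 0.425) and when litter 3 was left out (adjusted p = 0.0676). Over all 12 alternatives the adjusted p ran from 7.59e-05 to 0.425.

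Tgfbi (ENSMUSG00000035493, chromosome 13) encodes the fasciclin-domain relative of periostin and is named for its induction by TGF-beta. It held 51.0, 52.8 and 49.7 CPM at low adhesion and 48.4, 47.4 and 43.4 CPM at high adhesion. All high libraries were below all low ones and all litters pointed downwards, with log2 ratios of -0.08, -0.15 and -0.20. Its log2 fold change of -0.14 had a 95% interval of -0.26 to -0.02, which is not adjusted for the number of genes, and it did not pass over all genes (BH-adjusted p in edgeR = 0.148) or in any of 12 alternatives. The ratio of Postn to Tgfbi changed by -0.05, -0.08 and -0.05 on the log2 scale in the 3 litters. Their mean of -0.06 ± 0.01 (SD, n = 3) had p = 0.25 in the exact sign-flip permutation test (two-sided), the smallest that 3 pairs allow. Periostin passed and its relative did not, but the difference between them was not shown.

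Tnc (ENSMUSG00000028364, chromosome 4), the tenascin C gene, was the only tested member whose 3 high adhesion libraries all lay above its low ones. It held 840.3, 750.35 and 822 CPM at low adhesion and 881, 904 and 849.7 CPM at high adhesion. The largest step was in litter 2, whose log2 ratio of 0.27 compares with 0.07 in litter 1 and 0.05 in litter 3. The log2 fold change was 0.13 ± 0.04 (SE, 3 pairs) and just missed the threshold (BH-adjusted p in edgeR = 0.0535). Upper-quartile scaling (adjusted p = 0.0451), a minimum of 5 CPM (adjusted p = 0.0344) and leaving out litter 1 (adjusted p = 0.0442) each brought it past the threshold, in a range from 0.0344 to 0.540 over 12 alternatives.

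Fn1 (ENSMUSG00000026193, chromosome 1), the fibronectin gene, held 704, 829.5 and 796 CPM at low adhesion and 660.5, 867 and 715 CPM at high adhesion. The groups overlapped widely, since litter 2 was highest and litter 1 lowest on both substrates. Litter 2 was also the only litter that pointed upwards (log2 ratio 0.06, against -0.09 and -0.15). Its log2 fold change of -0.06 had an unadjusted 95% interval of -0.15 to 0.02 (BH-adjusted p in edgeR = 0.438). Without litter 2 it was -0.13 and passed (adjusted p = 0.0279), where 12 alternatives ranged up to an adjusted p of 0.961.

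Thbs1 (ENSMUSG00000040152, chromosome 2), the thrombospondin 1 gene, lay above 99.3% of tested genes in its mean level per kilobase of exon. It held 4821, 5010.2 and 5092 CPM at low adhesion and 4601, 4884 and 4598 CPM at high adhesion. The groups overlapped through the high library of litter 2, while each litter pointed downwards, with log2 ratios of -0.07, -0.04 and -0.15. The log2 fold change of -0.08 did not pass (BH-adjusted p in edgeR = 0.13). It did so without litter 2 (adjusted p = 0.0441) and in limma-voom (adjusted p = 0.0493), and had adjusted p of up to 0.788 over 12 alternatives.

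Thbs2 (ENSMUSG00000023885, chromosome 17), the thrombospondin 2 gene, held 6.87, 4.56 and 3.10 CPM at low adhesion and 7.69, 4.51 and 2.96 CPM at high adhesion. The litters kept the same order on both substrates and the substrate values lay close together within each. The log2 fold change of 0.06 did not pass (BH-adjusted p in edgeR = 0.879), its 95% interval of -0.24 to 0.35 was the widest among the tested members, and its sign turned without litter 1 (log2 fold change -0.04). The CPM ratio of Thbs1 to Thbs2, whose exons span a similar length, ran from 599 to 1640 over the libraries. It changed by -0.11 ± 0.11 (SD, n = 3) on the log2 scale, with p = 0.25 in the exact sign-flip permutation test (two-sided), again the smallest that 3 pairs allow. Thbs2 and Smoc2 are next to each other on chromosome 17, with 0 annotated protein-coding genes between them in RefSeq's GRCm38.p6. Smoc2 fell in 3 of 3 litters, and Thbs2 had log2 ratios of 0.16, -0.02 and -0.07. The difference between these neighbours was not tested.

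Sparc (ENSMUSG00000018593, chromosome 11), which encodes a collagen-binding protein of the matrix, moved least among the tested members. It held 1718, 1608 and 1551.5 CPM at low adhesion and 1712, 1579 and 1499 CPM at high adhesion. The order of the litters was the same on both substrates, and litter 1 was slightly higher at high adhesion in the CPM as deposited. The fitted change was -0.03 on the log2 scale, with an unadjusted 95% interval of -0.10 to 0.05 (BH-adjusted p in edgeR = 0.737), and it passed in none of 12 alternatives.

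**Figure D2:**
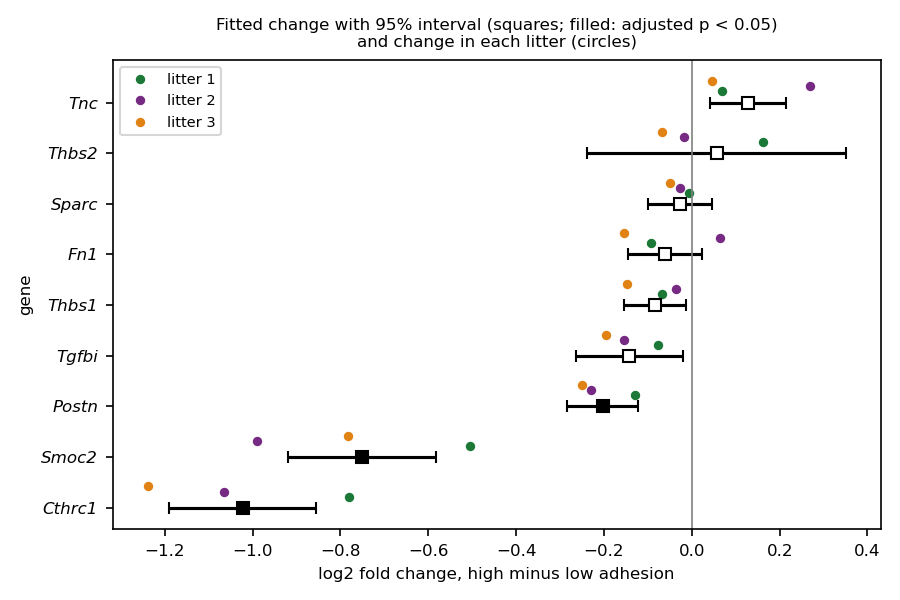
Log2 fold change, high minus low adhesion (x axis), of the 9 tested genes (y axis); squares with bars are the fitted values with unadjusted 95% intervals, filled where the adjusted p was below 0.05, and circles are the 3 litters. Cthrc1 (-1.02) and Smoc2 (-0.75) stand apart from the other 7, which lie between -0.20 and 0.13.

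Of the 9 tested members, 5 had groups that did not overlap (Cthrc1, Smoc2, Postn and Tgfbi lower, Tnc higher), where this held for 15.6% of all tested genes. Lower values in 3 of 3 litters were seen for 6 of the 9, namely those 4 that were lower together with Thbs1 and Sparc, where 20.4% of all tested genes had them. In the CPM as deposited, a check chosen after seeing the data, the first count was 4 without Postn (15.4% of all tested genes) and the second 5 without Sparc (20.2%), which was then slightly higher in litter 1. Most of these shifts were small, and 6 of the 9 did not pass the test. Together the 10 genes held 0.875%, 0.894% and 0.901% of all counts in the low adhesion libraries and 0.853%, 0.870% and 0.827% in the high ones. This share was lower at high adhesion in each litter. Thbs1 made up 54.4% to 56.3% of it and Sparc 17.2% to 20.2%, so most of this share was Thbs1.

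Levels can be compared between genes only per length, here as CPM per kilobase of exon, taken from the GENCODE M21 annotation by gene identifier. Whether reads covered whole transcripts or mainly 1 end is not given in the sources used here, and this measure assumes whole transcripts. Over 6 libraries Thbs1 came first with a mean level of 796 CPM per kilobase, then Sparc with 425 and Tnc with 108. Fn1 followed at 65.2 and Postn at 53.0. Their ranges, 56.5 to 74.2 for Fn1 and 46.5 to 60.4 for Postn, overlapped. Smoc2, Cthrc1 and Tgfbi lay at 19.1, 16.2 and 12.9 CPM per kilobase, and the ranges of the first 2, 11.3 to 25.2 and 8.78 to 24.2, took in that of Tgfbi (11.5 to 14.0). Thbs2 came last of the tested members at 0.707 and Smoc1 lowest of all at 0.153 CPM per kilobase. The pair Thbs1 and Thbs2 and the pair of SMOC genes each had 1 abundant and 1 scarce member in these cells.

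**Figure D3:**
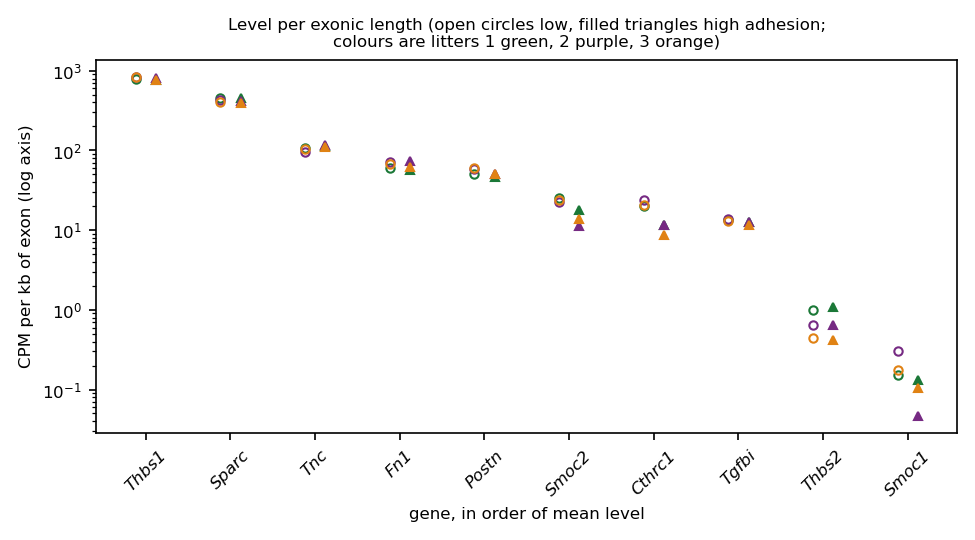
Level in each library as CPM per kilobase of exon (y axis, log scale) for the 10 genes in order of their mean (x axis); open circles are low and filled triangles high adhesion libraries, coloured by litter. Thbs1 and Sparc are the highest, and Thbs2 and Smoc1 lie below all others.

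Litter was a further source of difference. In the litter test of the same edgeR model, 5 of the 9 tested members differed between litters, where 17.9% of all tested genes did. These were Thbs2 (adjusted p = 2.23e-05), Fn1 (adjusted p = 0.000163), Postn (adjusted p = 0.00953), Sparc (adjusted p = 0.0167) and Smoc2 (adjusted p = 0.0369). For all 5 the litters stood in the same order on both substrates, which a litter test on these same libraries favours. Thbs2 differed most, with a mean of 7.28 CPM in litter 1, 4.54 in litter 2 and 3.03 in litter 3, or 2.40-fold from lowest to highest. For Fn1 the litter means were 682, 848 and 756 CPM, or 1.24-fold from lowest to highest. The Fn1 change with adhesion was a factor of 1.04. It averages over litters that went in opposite directions, so the range of litter means and this factor are unlike measures. DESeq2 called only Fn1 and Thbs2 as different between litters, where it called 6.2% of all genes. Without litter 1 the 3 called were Fn1, Smoc2 and Cthrc1, where 9.92% of all genes were.

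Other matricellular genes, from a list of 18, were called lower in 8 of 14 tested members and higher in 0, with a median log2 fold change of -0.20. The 8 were Igfbp7, Spp1, Fbln2, Fbln5, Ecm1, Fstl1, Sparcl1 and Thbs3. Of all tested genes 4.83% were called lower and 4.71% higher. In the fit over genes of at least 5 CPM these shares were 6.95% and 7.03%, and 7 of 9 genes of this list were called, all lower. Igfbp7, which encodes a secreted binding protein for insulin-like growth factors, went from 335 ± 27.3 to 239 ± 23.8 CPM (mean ± SD, 3 libraries each; edgeR, BH-adjusted p = 5.19e-09). Spp1, the osteopontin gene, went from 35.7 ± 7.43 to 24.4 ± 3.34 CPM, and Fbln2, a fibulin of basement membranes and elastic fibres, from 380 ± 49.0 to 304 ± 14.4 CPM (mean ± SD, 3 libraries each). Thbs3, the third thrombospondin, fell by 0.87 on the log2 scale but held only 1.13 to 3.27 CPM per library. The SPARC relative Sparcl1 fell by 0.45 on the log2 scale (BH-adjusted p in edgeR = 0.0186), and Sparc itself did not pass. The difference between Sparcl1 and Sparc was not tested, and Sparcl1 was not called without litter 3. DESeq2, which called 3.48% of all genes, called 3 of this list (Spp1, Fbln2 and Igfbp7). Without the replicate block 0 were called, where 0.243% of all genes were.

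In the CCN family, secreted matricellular proteins of which CCN1 and CCN2 are known as targets of YAP, 4 of 6 genes were tested. Of these 1 passed, where 9.55% of all tested genes did. Ccn4 fell from 150.05 ± 31.8 to 88.0 ± 18.5 CPM (mean ± SD, 3 libraries each), a log2 fold change of -0.77 ± 0.05 (SE, 3 pairs; edgeR, BH-adjusted p = 5.67e-10). That is close to the -0.75 of Smoc2. Ccn1 and Ccn2, at 2706 and 7810 CPM on low adhesion substrates, had log2 fold changes of 0.08 and 0.10 and did not pass (BH-adjusted p in edgeR = 0.162 and 0.0554). Ccn2 was called as higher in limma-voom, with upper-quartile scaling and with a minimum of 5 CPM. In the first 2 of these settings 2 of 4 tested family genes were called, where 8.75% and 9.67% of all genes were. With a minimum of 5 CPM it was 2 of 3, where 14% of all genes were called.

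Among 17 tested genes for receptors of fibronectin and of matricellular proteins, 9 fell and 2 rose, with a median log2 fold change of -0.23. Of all tested genes 4.83% were called lower and 4.71% higher. Of the subunits of fibronectin receptors, Itga5 and Itgav fell by 0.26 and 0.31 on the log2 scale (BH-adjusted p in edgeR = 0.000215 and 1.44e-05). Itgb1, the common beta subunit, and Itga8, which pairs with it, had log2 fold changes of 0.06 and -0.02 and did not pass (BH-adjusted p in edgeR = 0.492 and 0.924). The differences between the subunits were not tested. The thrombospondin receptor gene Cd47 fell from 66.7 ± 11.5 to 50.2 ± 9.60 CPM, and Lrp1, which encodes an endocytic receptor that takes up thrombospondins, from 90.3 ± 2.78 to 59.0 ± 4.48 CPM (mean ± SD, 3 libraries each). Lrp1 was also called without the replicate block (BH-adjusted p in edgeR = 0.0209), and no other gene of the comparison lists was. The 2 that rose were Itgb8 and Itga4, the latter at under 2 CPM on average in either group. DESeq2 called 4 of the 11 (Itga5, Itgav, Cd47 and Lrp1), where it called 3.48% of all genes.

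Genes for matrix assembly and crosslinking fell in 4 of 12 cases and rose in 1. For comparison with this and with the collagen and TGF-beta counts below, 4.83% of all tested genes were called lower and 4.71% higher. Tgm2 was the 1 that rose. It encodes transglutaminase 2, which crosslinks fibronectin and other matrix proteins, and had 43.5, 19.1 and 30.0 CPM at low and 71.0, 41.7 and 53.2 CPM at high adhesion. It rose in each litter, with a log2 fold change of 0.86 ± 0.07 (SE, 3 pairs; edgeR, BH-adjusted p = 5.96e-09), although the groups overlapped between litters. The latent TGF-beta binding protein gene Ltbp1 fell by 0.38 and the lysyl oxidase gene Loxl2 by 0.26 on the log2 scale, and Fbn1 and Adamts1 fell as well. Fbn1 was not called in DESeq2 (adjusted p = 0.11) or without litter 1 or litter 3. Collagens that these proteins bind were lower in 5 of 9 cases and higher in 0. They were Col3a1 (log2 fold change -0.34), Col1a1 (-0.21), Col6a3 (-0.35), Col1a2 (-0.18) and Col5a2 (-0.13). DESeq2, which called 3.48% of all genes, called 2 of the 5 (Col1a1 and Col3a1). Without litter 3 there were 3, where 6.05% of all genes were called. Among 11 genes of TGF-beta signalling, a known inducer of several members, 3 fell and 1 rose. Tgfb1 fell by 0.61, the feedback gene Pmepa1 by 0.42 and the repressor gene Skil by 0.29 on the log2 scale. DESeq2 did not call Tgfb1 (adjusted p = 0.0517). The 1 that rose was Tgfb2, from 217 ± 32.4 to 282 ± 49.9 CPM (mean ± SD, 3 libraries each; edgeR, BH-adjusted p = 3.76e-07).

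**Figure D4:**
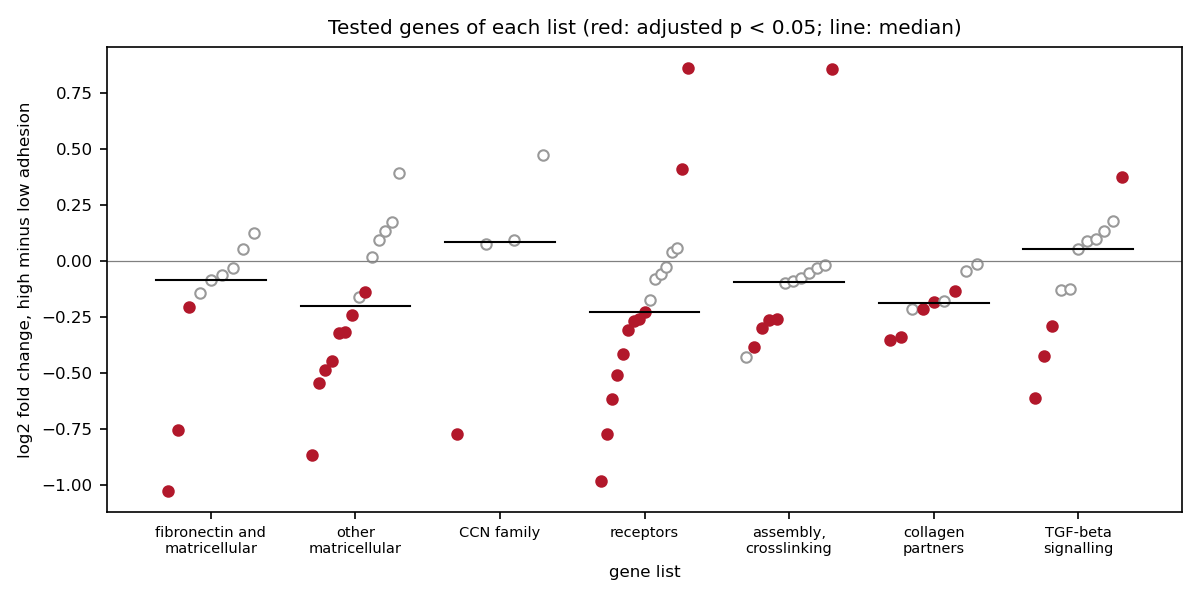
Log2 fold change, high minus low adhesion (y axis), of every tested gene in the 10-gene set and in 6 lists of related genes (x axis); red points had an adjusted p below 0.05 and lines are medians. In the other matricellular, CCN, collagen and 10-gene lists no red point lies above 0.

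Library totals ran from 12596249 to 13508257 counts, and no library stood apart in its TMM factor (0.988 to 1.011). Of 8 markers of nephrogenic stroma, all were detected at 15.2 CPM or more on average. Of these 6 fell (Pdgfra, Pdgfrb, Foxd1, Meis1, Rarb and Ntn1), Vim rose and Tcf21 did not pass. Over all tested genes 4.83% were called lower and 4.71% higher. The summed level of the stromal list, most of it Vim, was 3507 to 4118 CPM at low and 3643 to 4497 CPM at high adhesion. In 7 ureteric epithelial markers 3 rose, all keratins (Krt8, Krt18 and Krt19). The sum of the 7, most of it Krt18, was 297 to 599 CPM at low and 473 to 890 CPM at high adhesion. Epcam, Cdh1 and Wnt11 did not pass, with means of 5.93, 1.01 and 8.95 CPM at low and 7.46, 1.30 and 7.94 CPM at high adhesion. Ret was under 1 CPM. None of 8 macrophage markers passed, with sums of 25.1 to 50.7 and 18.7 to 45.1 CPM. Of 5 platelet markers Pf4 fell, Gp1bb did not pass, and Ppbp, Itga2b and Gp9 were under 1 CPM. Their sums, most of them Gp1bb, were 20.8 to 27.2 and 17.3 to 20.0 CPM. Of 7 endothelial markers Emcn fell, with sums of 41.8 to 53.0 and 36.6 to 45.8 CPM. In 6 smooth muscle and pericyte markers 2 rose and 2 fell, with sums of 263 to 320.3 and 274 to 355 CPM. Among 5 nephron progenitor markers Cited1 rose, with sums of 32.7 to 53.5 and 39.0 to 60.6 CPM. Podxl, a gene of podocytes, rose in 3 of 3 litters, with log2 ratios of 0.72, 0.51 and 0.48 (BH-adjusted p in edgeR = 0.0201). None of 5 erythroid markers passed, with sums of 163 to 256 and 132 to 270.3 CPM. The part of these markers in the results was not tested.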

How the data were processed

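The authors deposited 1 table with estimated counts per gene, not scaled and partly fractional, and CPM (the counts of each library brought to the same sum). Per the submitters' processing notes, STAR 2.7.11 with build GRCm39 and featureCounts (Subread 2.1.1) were used, beside fastp 0.24.0 and SAMtools 1.22.1. The annotation release, the strand setting and how reads with several matches were treated: not given in the sources used here. Counts were fractional in 4 of 6 libraries for Fn1, Thbs1 and Postn, 3 for Tnc and Smoc2, 2 for Thbs2 and Sparc and 1 for Tgfbi, so small differences in these genes are uncertain.

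Rounded counts of the 14834 genes (of 78409) that filterByExpr kept went into edgeR 4.0.16 (R 4.3.3), with TMM scaling and a robust quasi-likelihood fit that has litter as a block. The p-values, two-sided, were adjusted over these genes (Benjamini-Hochberg, threshold 0.05). Positive log2 fold changes mean higher at high adhesion. The standard error is the log2 fold change over the root of its F statistic. Printed CPM are TMM-scaled. The series' design text states that the groups are litter-matched. Deviations from group means, taken on log2(CPM + 0.5) across genes, correlated at 0.60, 0.61 and 0.39 within litters 1, 2 and 3 and at -0.52 to -0.08 between litters. Centring on group means pushes the values between litters down where those within litters are positive. DESeq2 1.42.0, limma-voom (limma 3.58.1), other scalings and filters, and leaving out each litter were alternatives. Leaving out 1 library equals leaving out its litter here. The fit was tested on simulated data. From each comparison list the called genes of lowest adjusted p are named (up to 3), with Itga5, Itgb1, Itgav and Itga8 in any case. The others named were chosen after their values were seen. Exon lengths matched 94.8% of tested genes. No coordinates of GRCm39 are given, since the annotation at hand was of GRCm38. The summed level of 1 further marker list is not reported here. The members, lists and tests were chosen with earlier results of these data known.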

Additional observations from a re-analysis of the deposited data

How the results depend on the processing

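Cthrc1 was called in all 12 alternatives, Smoc2 in 11 and Postn in 10, and Sparc, Tgfbi and Thbs2 in none of those in which they were tested. Without the replicate block 36 genes were called in place of 1416 (1359 at an unadjusted p under 0.05), and of the members only Cthrc1 (1 gene). There Postn had a log2 fold change of -0.21 and Smoc2 one of -0.74. DESeq2 called 406 genes in all (3.48%) and the same 3 members, and 2 members as different between litters (6.2% of all genes). Over genes of at least 5 CPM, where Thbs2 was not tested, 3 members differed between litters, as did 22.5% of all genes there. Leaving out 1 litter gave 908 (without litter 3, 6.05%) to 1553 called genes (without litter 2, 10.3%), and 2 to 5 called members. The 5 members called without litter 2 were Fn1, Thbs1, Postn, Smoc2 and Cthrc1. With 1 litter left out, 3 to 5 members differed between the remaining litters, where 9.18% to 17.9% of all genes did. The log2 fold change of Thbs2 ran from -0.039 (without litter 1) to 0.091 (without litter 3), in place of 0.06. The change in the Smoc1 to Smoc2 ratio was -0.45 in the main analysis, 0.38 with a pseudocount of 1 CPM, and from -0.83 to 0.19 when 1 litter was left out. The cause was not tested, except that Smoc1 had 2 counts in 1 library of litter 2. Depth limits Smoc1 and Thbs2, and with 3 litters an exact test of a ratio cannot pass.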
